A study of Mus musculus with 4 samples.

Results

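Peroxisome biogenesis and peroxisomal lipid oxidation were examined through 32 genes, chosen by symbol for their known role, out of 32868 gene names measured in the tibialis anterior, a shin muscle of fast fibers, of mice. All 32 names were found, and none was listed at 0 in every library. RNA came from C57BL/6 mice at postnatal day 21. The Het group had the genotype Nf1flox/+/Myf5+ and the Nf1-KO group Nf1flox/flox/Myf5+, with 2 libraries in each. In this kind of cross Myf5 drives a Cre recombinase in muscle precursors, so cells of other lineages in the muscle keep the gene. The controls also carry a floxed allele and the Myf5 allele, and no library without these was used here. The labels do not say whether the 2 libraries of a group came from separate animals, so p-values measure only the spread between these libraries.

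Peroxisomes are small organelles with a single membrane that shorten very long-chain and branched fatty acids, start the synthesis of ether lipids, and break down the hydrogen peroxide that their oxidases make. Their proteins are built in the cytosol and brought in afterwards by the peroxins, the products of the Pex genes. In muscle, as elsewhere, fatty acids shortened in peroxisomes are passed to mitochondria for complete oxidation.

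Values are RPKM, read numbers divided by gene length and library size, as the authors deposited them, and they summed to between 532315 and 547144 per library. Fold changes are log2 differences of RPKM + 1, Nf1-KO against Het, after scaling between libraries, with the standard error and the adjusted p from limma. Without that scaling the median gene was 0.07 higher in Nf1-KO. Nf1 itself was 1.09 and 1.01 RPKM in Het and 0.89 and 0.85 RPKM in Nf1-KO. Its log2 fold change was -0.18 (SE 0.057, limma adjusted p 0.041), and the call was lost when any 1 library was left out (limma adjusted p 0.057 to 0.18). A value over the whole gene also takes in exons that the floxed deletion leaves, so it checks the labels in part only. The authors' deposited table gives Nf1 a log2 fold change of -0.38 (adjusted p 0.0026). The muscle markers Ckm, Acta1, Tnnt3, Myh4, Mylpf and Des were all abundant, summing to between 38152 and 48153 RPKM. In this bulk tissue, fewer cells of a type and less RNA per cell cannot be told apart.

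More of the peroxisome genes were higher than lower in Nf1-KO, and the largest rises were in lipid-oxidation and membrane genes. Of the 32, 31 passed the filter on low values, and each of these held at least 0.66 RPKM in every library. At a limma adjusted p under 0.05, 13 of the 31 were higher, where 24.9% of all 10690 tested genes were, and 3 were lower, where 25.4% of all tested genes were. Changes in either direction came to 16 of 31, beside 50.2% of all tested genes. The 15 others did not pass. The median log2 fold change of the 31 was 0.07, against 4.8e-04 over all tested genes. Pxmp2, Hsd17b4 and Phyh were the 3 beyond 0.5 on the scaled log2(RPKM + 1) scale in either direction. Pex10 and Ehhadh, at 0.44 and 0.43, also passed 0.5 with a pseudocount of 0.1 (0.51 and 0.54) and with unscaled values (0.53 and 0.50). With values as deposited and not scaled, 18 of the 31 were higher (35.2% of all tested genes) and 3 lower (17.6%). The summed level of the 32 genes was 487 and 486 RPKM in Het and 668 and 666 RPKM in Nf1-KO. A large part of that sum was Phyh, which made up 30.1% and 30.6% of it in Het and 33.9% and 33.5% in Nf1-KO.

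**Figure D1:**
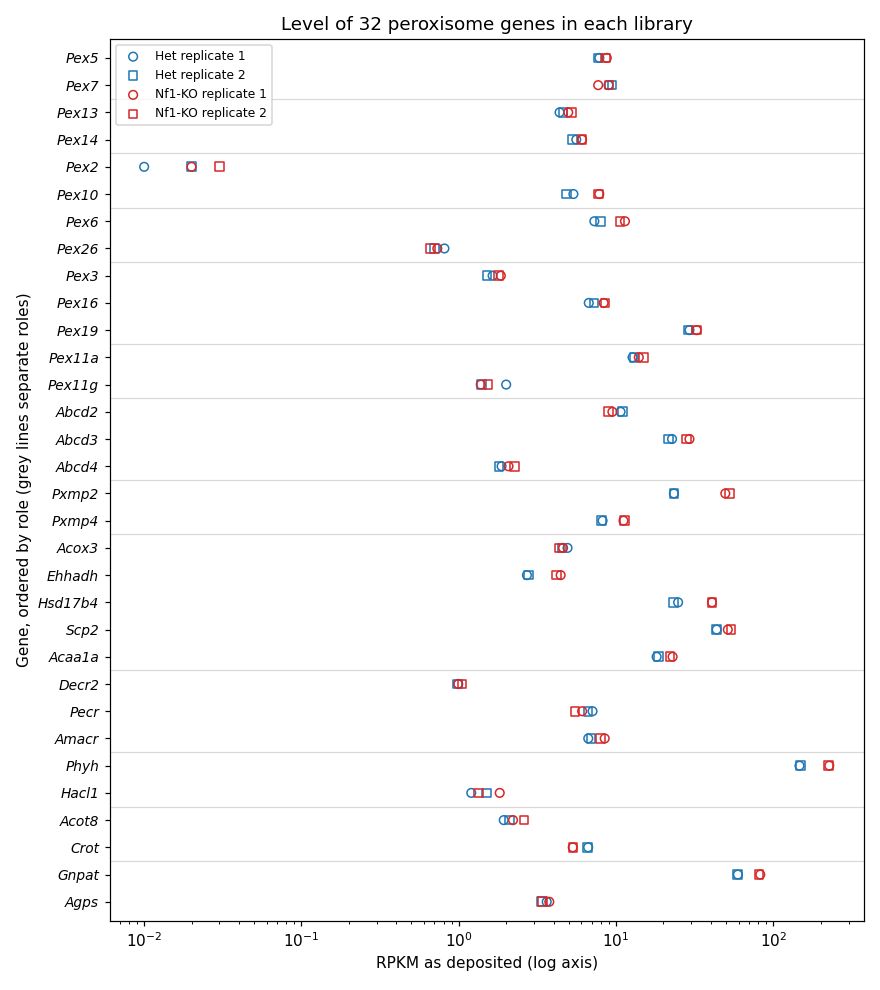
RPKM as deposited (log axis) of the 32 genes, ordered by role, with 1 point per library (blue, Het; red, Nf1-KO). Levels run from Phyh at 146 RPKM or more to Pex2 at 0.03 RPKM or less, and the red and blue points lie apart most clearly for Pxmp2, Hsd17b4 and Phyh.

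Levels spanned a wide range per unit length. Phyh was by far the highest, followed in Het by Gnpat, Scp2, Pex19, Hsd17b4, Pxmp2, Abcd3 and Acaa1a in the order of their group means. Neighbours Hsd17b4 and Pxmp2 did not differ beyond their spread in Het, since Pxmp2 at 23.3 RPKM in both libraries lay between the 24.8 and 23.2 RPKM of Hsd17b4. At the low end, Decr2 and Pex26 held means of 0.985 and 0.755 RPKM. Pex2, part of the ubiquitin ligase ring and needed in every cell with peroxisomes, was listed at 0.01 and 0.02 RPKM in Het and 0.02 and 0.03 RPKM in Nf1-KO. It did not pass the filter on low values and was not tested, and no change is read from it.

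The promoters of 4 members that moved past the threshold are shown to let the sequences be compared: the 3 with the largest rise and that with the largest fall among changed members that have a single start-site window on file. The sequences are from RefSeq (GRCm38.p6), 250 bases before to 50 after the start site, 5′ to 3′ on the gene's strand. Capitals mark matches, on either strand, to AGGTCA (the hexamer of nuclear receptors), TGACGT (the core of CREB-type sites), GGGCGG (the GC box), CCAAT (the CCAAT box) or the NRF1-type palindrome. CACGTG, an E-box, was also searched, as was the DR1 element that PPAR binds with RXR, which repeats AGGTCA after a single base and so overlaps the hexamer.
Phyh (chr2:4918746-4919045, + strand): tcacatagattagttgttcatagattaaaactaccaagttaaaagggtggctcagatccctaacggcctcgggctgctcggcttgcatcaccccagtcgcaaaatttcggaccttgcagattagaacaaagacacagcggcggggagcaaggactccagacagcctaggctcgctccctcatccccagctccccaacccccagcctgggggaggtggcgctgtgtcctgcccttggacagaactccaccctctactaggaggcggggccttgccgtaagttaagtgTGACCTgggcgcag
Ehhadh (chr16:21787785-21788084, - strand): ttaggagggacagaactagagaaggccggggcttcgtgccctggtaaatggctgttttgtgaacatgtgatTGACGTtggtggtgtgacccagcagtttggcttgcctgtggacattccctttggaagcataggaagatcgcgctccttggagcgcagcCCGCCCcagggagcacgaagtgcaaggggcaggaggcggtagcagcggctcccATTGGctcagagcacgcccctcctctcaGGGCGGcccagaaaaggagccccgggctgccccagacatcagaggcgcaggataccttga
Pex10 (chr4:155066780-155067079, + strand): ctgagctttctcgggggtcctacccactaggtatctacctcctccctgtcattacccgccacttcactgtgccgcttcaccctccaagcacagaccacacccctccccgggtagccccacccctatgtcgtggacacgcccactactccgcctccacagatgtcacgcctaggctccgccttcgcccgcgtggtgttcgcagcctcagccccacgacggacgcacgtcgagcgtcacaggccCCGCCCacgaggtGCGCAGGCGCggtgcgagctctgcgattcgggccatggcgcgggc
Crot (chr5:8997097-8997396, - strand): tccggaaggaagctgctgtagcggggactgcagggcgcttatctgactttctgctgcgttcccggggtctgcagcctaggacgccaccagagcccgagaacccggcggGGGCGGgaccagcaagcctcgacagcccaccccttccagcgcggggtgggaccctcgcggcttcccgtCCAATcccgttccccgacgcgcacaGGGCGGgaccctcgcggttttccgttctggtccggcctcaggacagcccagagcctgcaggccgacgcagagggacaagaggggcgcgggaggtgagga
Counted from the start site at 0, the Phyh window held a single match, AGGTCA on the opposite strand at position 36. Pex10 held GGGCGG at -8 and the NRF1-type palindrome at 5. Ehhadh held TGACGT at -179, GGGCGG at -91 and -10 and CCAAT at -38, and Crot, which fell, held GGGCGG at -142 and -49 and CCAAT at -74. In the 29 windows on file for 25 of the 32 members, DR1 had no match, and over all 32851 windows of the same length 0.0396% held it. AGGTCA stood in 3 of the 29 windows (10.3%), those of Phyh, Scp2 and Pex11g, against 16.3% of all windows. GGGCGG stood in 22 (75.9%) against 35.7% of all windows, and CCAAT in 12 (41.4%) against 37.4%. TGACGT stood in 4 (13.8% against 7.51%), the NRF1-type palindrome in 3 (10.3% against 6.23%) and CACGTG in 1 (3.45% against 7.15%). The members' windows had a median GC content of 58.0%, against 52.7% over all windows. These matches are a description of letters in a short window.

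The receptors that carry enzymes to the organelle did not pass the threshold. Pex5, which recognises the common carboxy-terminal targeting signal, was 7.82 and 7.65 RPKM in Het and 8.72 and 8.56 RPKM in Nf1-KO. The libraries do not overlap, but the scaled difference was small (log2 fold change 0.06, SE 0.038, limma adjusted p 0.25). Pex7, which recognises the amino-terminal signal, was 8.94 and 9.41 RPKM in Het and 7.69 and 9.03 RPKM in Nf1-KO, so that the groups overlapped before scaling. Its log2 fold change was -0.21 (SE 0.071, limma adjusted p 0.050), just outside the threshold. It was -0.10 without Nf1-KO replicate 1 (limma adjusted p 0.20) and -0.30 without Nf1-KO replicate 2 (0.0026). Pex13 and Pex14, which form the docking site for these receptors, had log2 fold changes of 0.07 and 0.06 (limma adjusted p 0.27 and 0.33). Pex13 was 4.37 and 4.60 RPKM in Het and 4.96 and 5.21 RPKM in Nf1-KO, and Pex14 was 5.58 and 5.27 RPKM against 6.07 and 6.06 RPKM. Both were a little above Het in both Nf1-KO libraries. Pex5, Pex13 and Pex14 passed the threshold as higher only with unscaled values, among the alternatives run.

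The clearest rises among peroxins were in genes that recycle the import receptor. Pex10, a member of the ubiquitin ligase ring that marks the receptor for release, was 5.35 and 4.82 RPKM in Het and 7.81 and 7.69 RPKM in Nf1-KO. Its log2 fold change was 0.44 (SE 0.053, limma adjusted p 8.3e-04). Pex6, an ATPase that pulls the marked receptor out of the membrane, was 7.27 and 7.93 RPKM in Het and 11.38 and 10.57 RPKM in Nf1-KO (log2 fold change 0.39, SE 0.055, limma adjusted p 0.0017). Pex26, the membrane anchor of that ATPase, did not rise with it. It was 0.81 and 0.70 RPKM in Het and 0.73 and 0.66 RPKM in Nf1-KO, with libraries that overlapped before scaling and not after it (log2 fold change -0.09, SE 0.063, limma adjusted p 0.28).

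Peroxins of membrane assembly and division moved little. Pex16, which helps to bring membrane proteins in, was 6.70 and 7.23 RPKM in Het and 8.33 and 8.49 RPKM in Nf1-KO (log2 fold change 0.16, SE 0.047, limma adjusted p 0.032). This call was lost without Het replicate 1 (limma adjusted p 0.16), without Nf1-KO replicate 1 (0.053), without Nf1-KO replicate 2 (0.081) with no filter on low values (0.089) and with the 20 most abundant genes left out of the scaling (0.059). Pex19, the chaperone of peroxisomal membrane proteins, was 29.2 and 28.7 RPKM in Het and 32.5 and 32.4 RPKM in Nf1-KO. Both Nf1-KO libraries lay above Het, but the scaled difference did not pass (log2 fold change 0.07, SE 0.026, limma adjusted p 0.078), whereas the unscaled one did (0.16, limma adjusted p 0.0035). Pex3, its docking partner, was 1.64 and 1.51 against 1.85 and 1.78 RPKM (limma adjusted p 0.35). Pex11a, which promotes peroxisome growth and division, was 12.72 and 13.00 RPKM in Het and 13.94 and 14.94 RPKM in Nf1-KO (limma adjusted p 0.23). With unscaled values Pex11a passed as higher (log2 fold change 0.16, limma adjusted p 0.023). Its relative Pex11g was 2 and 1.4 against 1.38 and 1.53 RPKM, with overlapping libraries (limma adjusted p 0.20). As a class, 3 of the 12 tested peroxins were higher and 0 lower in the limma fit. That share, 25%, is near the 24.9% of all tested genes.

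**Figure D2:**
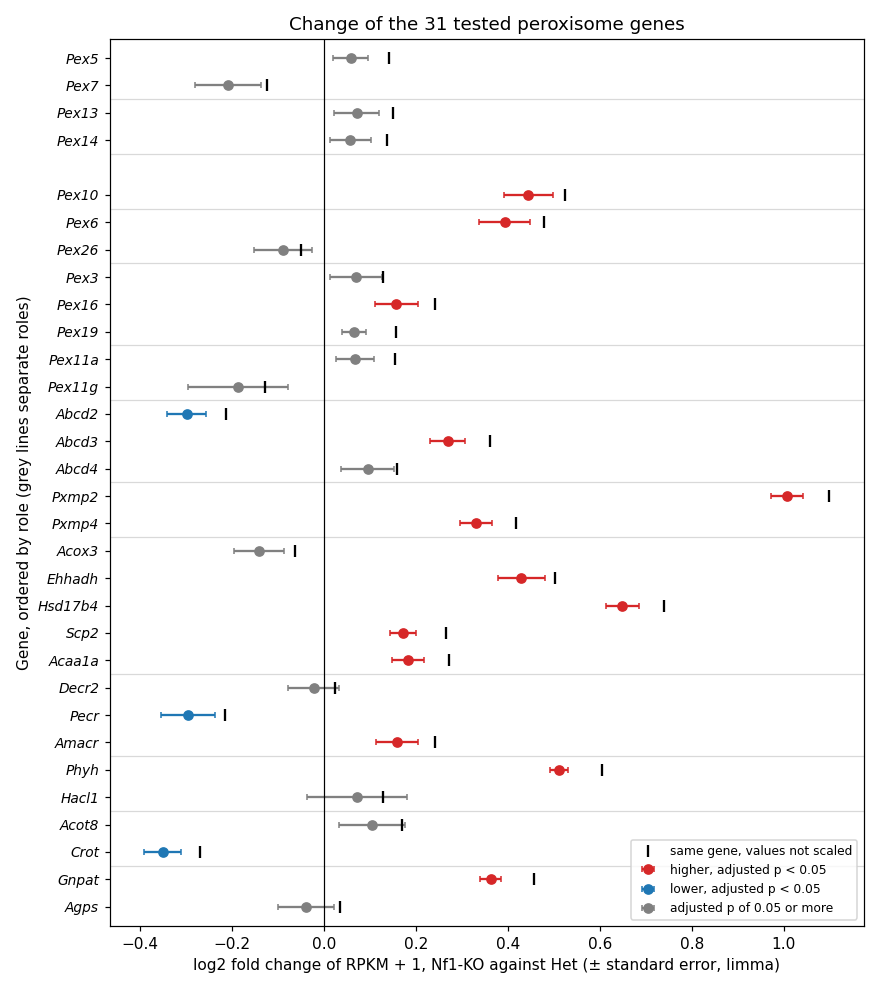
Log2 fold change of RPKM + 1, Nf1-KO against Het, with the limma standard error, for the 31 tested genes in order of role; black ticks give the same value without scaling between libraries. Pxmp2 stands at 1.01 and Crot at -0.35, and the peroxins other than Pex10 and Pex6 lie within 0.21 of 0.

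Membrane transporters moved in opposite directions. Abcd3 (PMP70), an abundant ATP-driven importer of fatty acyl-CoA esters and bile acid precursors, was 22.7 and 21.5 RPKM in Het and 29.2 and 28.0 RPKM in Nf1-KO (log2 fold change 0.27, SE 0.038, limma adjusted p 0.0017). Abcd2, a relative that takes in very long-chain acyl-CoA, fell from 10.67 and 10.95 RPKM to 9.47 and 8.92 RPKM (log2 fold change -0.30, SE 0.042, limma adjusted p 0.0017). The ratio of Abcd3 to Abcd2 within a library, which no scaling between libraries changes, was 2.12 and 1.96 in Het and 3.09 and 3.14 in Nf1-KO. Abcd4, a family member known from vitamin B12 export out of lysosomes, was 1.87 and 1.80 RPKM against 2.07 and 2.26 RPKM and did not pass (log2 fold change 0.10, limma adjusted p 0.21).

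Pxmp2 had the largest change of all members. It encodes a channel protein of the peroxisomal membrane that lets small solutes through. It was 23.3 RPKM in both Het libraries and 49.4 and 52.8 RPKM in Nf1-KO, 2.19 times as high as deposited. The log2 fold change was 1.01 (SE 0.036, limma adjusted p 5.0e-06). Pxmp4, another peroxisomal membrane protein, rose from 8.20 and 8.09 RPKM to 11.14 and 11.28 RPKM (log2 fold change 0.33, SE 0.035, limma adjusted p 4.9e-04). In both genes the groups lay well apart.

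The core beta-oxidation enzymes rose with the exception of Acox3. Hsd17b4, the D-bifunctional protein that carries out the middle steps for branched and very long chains, was 24.8 and 23.2 RPKM in Het and 40.7 and 40.8 RPKM in Nf1-KO (log2 fold change 0.65, SE 0.036, limma adjusted p 3.2e-05). Ehhadh, the L-bifunctional protein and a known target of PPAR alpha, was 2.71 and 2.77 RPKM in Het and 4.44 and 4.16 RPKM in Nf1-KO (log2 fold change 0.43, SE 0.052, limma adjusted p 8.5e-04). The thiolases that close the cycle rose less. Scp2, which also encodes a sterol carrier, was 43.5 and 43.4 RPKM against 51.3 and 53.6 RPKM (log2 fold change 0.17, SE 0.028, limma adjusted p 0.0033). Acaa1a was 18.1 and 18.7 RPKM against 22.9 and 22.0 RPKM (log2 fold change 0.18, SE 0.035, limma adjusted p 0.0059). Acox3, an oxidase of branched-chain acyl-CoA, was 4.91 and 4.53 RPKM in Het and 4.60 and 4.35 RPKM in Nf1-KO, with libraries that overlapped before scaling and not after it (log2 fold change -0.14, SE 0.054, limma adjusted p 0.073). The ratio of Hsd17b4 to Acox3 was 5.04 and 5.12 in Het and 8.84 and 9.37 in Nf1-KO.

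Auxiliary enzymes split. Amacr, the racemase that prepares branched chains for oxidation, was 6.65 and 6.93 RPKM in Het and 8.46 and 7.97 RPKM in Nf1-KO (log2 fold change 0.16, SE 0.046, limma adjusted p 0.029). Its call was lost without Het replicate 1 (limma adjusted p 0.14), without Het replicate 2 (0.053), without Nf1-KO replicate 1 (0.12) with no filter on low values (0.081) and with the 20 most abundant genes left out of the scaling (0.053). Pecr, a reductase of trans-2-enoyl-CoA, fell from 7.08 and 6.64 RPKM to 6.08 and 5.48 RPKM (log2 fold change -0.30, SE 0.058, limma adjusted p 0.0069). Decr2, a dienoyl-CoA reductase, was 0.99 and 0.98 RPKM against 0.99 and 1.05 RPKM (limma adjusted p 0.76), and the sign of its difference turned with unscaled values.

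Alpha-oxidation removes a carbon from phytanic acid, a branched fatty acid from the diet that beta-oxidation cannot enter. Phyh, the first enzyme of that route, rose from 146 and 149 RPKM to 226 and 223 RPKM (log2 fold change 0.51, SE 0.020, limma adjusted p 7.5e-06). Hacl1, the lyase that follows, was 1.2 and 1.5 RPKM in Het and 1.82 and 1.33 RPKM in Nf1-KO, with overlapping libraries (log2 fold change 0.07, SE 0.11, limma adjusted p 0.61).

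Of the 2 members that release shortened chains, Crot fell and Acot8 did not pass. Crot, the octanoyltransferase that hands medium chains to carnitine for passage to mitochondria, was 6.64 and 6.59 RPKM in Het and 5.30 and 5.33 RPKM in Nf1-KO. Its log2 fold change of -0.35 (SE 0.040, limma adjusted p 6.6e-04) was the largest fall among the members. Acot8, a thioesterase that frees acids from coenzyme A, was 1.93 and 2.11 RPKM against 2.21 and 2.59 RPKM (log2 fold change 0.10, SE 0.072, limma adjusted p 0.27). Crat, the carnitine acetyltransferase, is not a member and was chosen after its values were seen. It was far more abundant than either, and rose from 136 and 135 RPKM to 188 and 187 RPKM (log2 fold change 0.37, SE 0.018, limma adjusted p 2.1e-05). Ehhadh over Crot was 0.41 and 0.42 in Het and 0.84 and 0.78 in Nf1-KO.

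Ether lipid synthesis begins with Gnpat and Agps, which act in sequence. Gnpat rose from 59.4 and 59.2 RPKM to 82.5 and 81.0 RPKM (log2 fold change 0.36, SE 0.022, limma adjusted p 5.1e-05). Agps was 3.62 and 3.34 RPKM in Het and 3.76 and 3.42 RPKM in Nf1-KO, with overlapping libraries (log2 fold change -0.04, SE 0.061, limma adjusted p 0.62; 0.03 with unscaled values). Gnpat over Agps was 16.4 and 17.7 in Het and 21.9 and 23.7 in Nf1-KO.

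**Figure D3:**
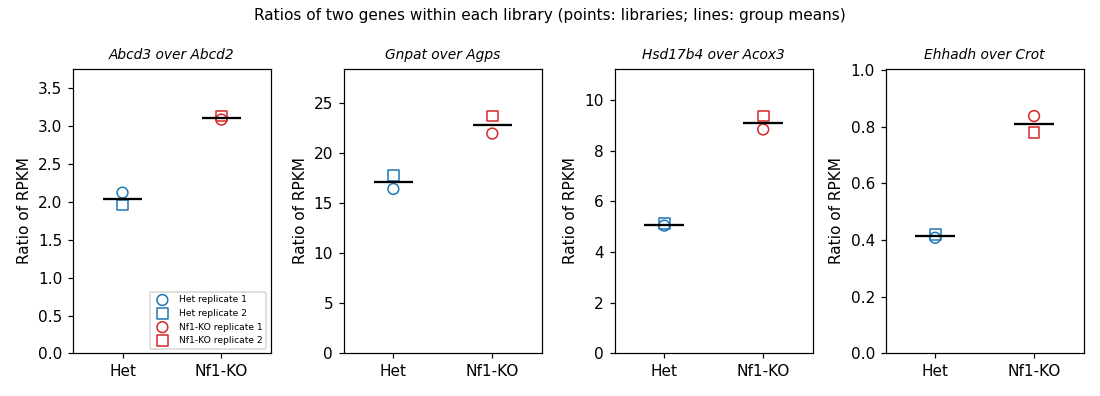
Ratio of the RPKM of 2 genes within each library (points) with the group mean (lines), on axes that start at 0. In each of the 4 ratios, both Nf1-KO libraries lie above both Het libraries, as for Abcd3 over Abcd2 (3.09 and 3.14 against 2.12 and 1.96).

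The pairs in these ratios were chosen after their values were seen, and with 2 libraries against 2 an exact two-sided permutation test cannot go below 0.333, so no test is given for them. By class, 7 of the 14 enzymes were higher and 2 lower (median log2 fold change 0.13), beside 24.9% higher and 25.4% lower among all tested genes. The 5 membrane genes had 3 higher and 1 lower (median 0.27), and the 12 tested peroxins had a median of 0.07. The summed level of the enzymes over that of the peroxins was 3.55 and 3.56 in Het and 4.38 and 4.27 in Nf1-KO. By scaled values both Nf1-KO libraries lay above both Het libraries in 20 of the 31 genes (38.2% of all tested genes) and below them in 6 (38.1%), and the groups overlapped in 5. As deposited, 21 of the 31 lay above (49.8% of all tested genes) and 3 below (27.4%).

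The authors' deposited table, which rests on read counts from the same libraries, listed 31 of the 32 genes. By the authors' deposited table, 11 of these were higher at an adjusted p under 0.05, where 15% of its genes were, and 3 lower, where 16.6% were. Pex16 and Amacr, higher here, did not pass in the authors' deposited table (adjusted p 0.34 and 0.20). The mean normalized count behind a member in the authors' deposited table ran from 97.3 for Decr2 to 12922 for Phyh, so Decr2, Pex11g (99.6), Acot8 (191) and Pex26 (195) rest on the fewest reads. Exons of 14 of the 32 genes overlap those of another annotated gene (GENCODE M21), including Myd88 for Acaa1a, Large2 for Pex16, an antisense gene for Pxmp2 and 2810004N23Rik for Gnpat. The sources used here do not say if strand was counted, and these values may hold reads of both genes.

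Other genes linked to the organelle, 54 listed by name and outside the 32, moved in both directions. Some of these, such as Ech1 and Gdap1, also act in mitochondria, so the list is not specific to peroxisomes. Of the 37 that passed the filter, 22 rose and 6 fell, beside 24.9% and 25.4% of all tested genes, and the median log2 fold change over the list was 0.17. With unscaled values 23 rose and 3 fell, beside 35.2% and 17.6% of all tested genes. Dhrs4, a peroxisomal reductase of carbonyl compounds, had the largest rise in log2 of RPKM + 1, from 11.00 and 10.75 RPKM to 28.7 and 28.5 RPKM (log2 fold change 1.23, limma adjusted p 1.4e-06). Eci3, an enoyl-CoA isomerase, had the larger ratio of deposited values but at low levels, from 0.06 and 0.04 RPKM to 0.57 and 0.99 RPKM (log2 fold change 0.73, limma adjusted p 0.0023), and was chosen after its values were seen. Ech1, an isomerase of dienoyl-CoA in peroxisomes and mitochondria, and Mlycd, which breaks down malonyl-CoA, rose by 1.00 and 0.97 on the log2 scale. Cat, the catalase that removes hydrogen peroxide, was 56.3 and 56.1 RPKM against 78.0 and 78.2 RPKM (log2 fold change 0.37, limma adjusted p 3.6e-05). The largest falls were in Gdap1, which acts in the division of mitochondria and peroxisomes (2.81 and 2.86 RPKM against 0.76 and 0.51 RPKM, log2 fold change -1.29), Trim37 (-0.33) and Dhrs7b (-0.27).

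**Figure D4:**
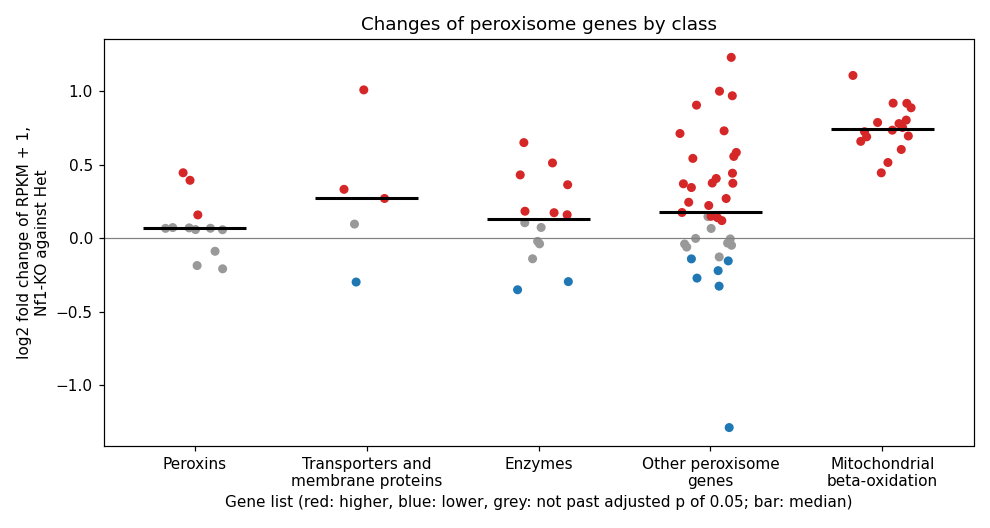
Log2 fold change of RPKM + 1, Nf1-KO against Het, for each tested gene of 5 lists (red, higher; blue, lower; grey, not past the threshold; bar, median). Medians are 0.07 for peroxins, 0.27 for membrane genes, 0.13 for enzymes, 0.17 for other peroxisome genes and 0.74 for mitochondrial beta-oxidation genes.

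For comparison, 16 of 17 listed mitochondrial beta-oxidation genes passed the filter on low values. All 16 were higher, with a median log2 fold change of 0.74 and a lowest value of 0.44. Cpt1b, listed at 0.15 to 0.35 RPKM, did not pass. The annotation and counting program are not given, so neither its level in the muscle nor a change is read from that value. The difference between the lists was not tested. Among regulators, Ppara, the nuclear receptor that drives many fatty acid oxidation genes, was 3.71 and 3.97 RPKM in Het and 8.73 and 8.57 RPKM in Nf1-KO (log2 fold change 0.92, SE 0.047, limma adjusted p 2.3e-05). The PPAR coactivator Ppargc1a rose by 0.37 on the log2 scale (limma adjusted p 6.1e-04), while Ppargc1b had a log2 fold change of -0.17 (limma adjusted p 0.048; -0.10 and 0.21 unscaled). The RXR partners Rxra and Rxrg fell by 0.32 and 0.53 on the log2 scale. Ppard (0.07, limma adjusted p 0.18) and Pparg (0.01, limma adjusted p 0.92) did not pass.

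Markers of other cell types moved between the groups too. The summed level of 7 adipocyte markers was 179 and 186 RPKM in Het and 269 and 267 RPKM in Nf1-KO, nearly all of it Fabp4, which capillary endothelium also expresses. Of the 4 tested, Cfd, Fabp4 and Cidec were higher, and Adipoq was 1.11 and 1.31 RPKM against 0.95 and 1.05 RPKM (limma adjusted p 0.058). Lep, Plin1 and Retn did not pass the filter on low values. Lep was 0.21 and 0.22 RPKM in Het and 0.03 and 0.05 RPKM in Nf1-KO. The authors' deposited table gives Lep as lower (log2 fold change -2.40, adjusted p 0.0025). Plin1 was 0.41 and 0.34 against 0.35 and 0.35 RPKM, and Retn 0.17 and 0.29 against 0.40 and 0.41 RPKM. Of 3 brown-fat markers, Ucp1 was listed at 0 in all 4 libraries and Elovl3 was not tested, while Cidea was higher, at 0.75 and 1.02 RPKM against 2.01 and 2.52 RPKM (limma adjusted p 0.0016). Of 4 liver markers, Alb, Apoa1 and Ttr held at most 0.03 RPKM and were not tested, while Cyp2e1 was higher, at 1.17 and 1.06 RPKM against 1.75 and 1.58 RPKM (limma adjusted p 0.012). Markers were higher in 6 of 6 tested Schwann cell genes (summed 15.1 and 15.5 RPKM against 34.9 and 33.4 RPKM), 4 of 4 fibroblast genes (80.8 and 78.7 against 119.8 and 120.2) and 2 of 3 tested macrophage genes (2.27 and 2.58 against 4.65 and 4.12). The macrophage sum covers 6 listed genes, of which Adgre1 was 0 in all 4 libraries and Cd14 and Ptprc were not tested. The 2 higher were low, Cd68 at 0.36 and 0.78 RPKM against 1.72 and 1.17 RPKM and Csf1r at 0.60 and 0.53 RPKM against 1.29 and 1.37 RPKM. Endothelial genes had 2 of 5 higher and 1 lower (69.2 and 69.5 against 75.2 and 74.2). Of the 6 muscle markers 5 were lower and Des was higher. Among all tested genes, 24.9% were higher and 25.4% lower. The part of other cell types in the changes of the peroxisome genes was not tested.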

How the data were processed

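RNA from 4 libraries (TruSeq RNA version 2 kit, per the labels) was analysed. The submitters' processing notes name STAR 2.4.2a, DESeq2 and build mm9, without roles; annotation, counting program and strandedness are not given in the sources used here. The authors deposited RPKM values, reads divided by gene length and library size. The files do not name this unit. It was read from the values, since the ratio of mean normalized count to value rose with transcript length (log-log slope 0.95 over 4555 genes). The same ratio puts the mean depth near 47.4 M reads. The authors' deposited table gives, per the file headers, a mean normalized count (signal), log2 fold change with its standard error, a test score, and a p-value with its adjusted p-value.

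Numeric names (33 rows) were left out, and the highest-mean copy of a name was kept. Genes reaching 0.5 RPKM in 2 or more libraries were fitted together on log2(RPKM + 1) using limma 3.58.1 under R 4.3.3, a scale that understates changes of low genes. Scaling between libraries used a trimmed mean of log ratios, trimming each end by 30% for the ratio and 5% for the abundance, with p-values adjusted by Benjamini-Hochberg over 10690 genes. The fit was tested on simulated data. No batch is labelled. The values of a group's replicates were not copies: at most 0.746% were equal, over 4827 genes with a mean of 5 RPKM or more. Repeat runs of 1 library would differ too, so this cannot show that replicates were separate libraries or animals. Over these genes the median standard deviation between replicates was 2.02% of the mean in Het and 1.91% in Nf1-KO. All 32 genes are reported, and other peroxisome genes are named for the 3 largest rises and falls and for Cat, while other genes that the rule names are not reported here. Members and lists were chosen with earlier results of these data known. Alternatives changed the pseudocount, filter, scaling, variance model, block, copies and libraries.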

Additional observations from a re-analysis of the deposited data

How the results depend on the processing

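Of 432 values of single peroxisome genes under 14 alternatives, 403 kept sign and call status, 12 gained a call, 10 lost one and 7 changed sign. Of the 16 changed genes, 14 kept their call under every alternative run, and Pex16 and Amacr did not. Pex7 gained a call as lower under 5 alternatives and ranged from -0.30 (adjusted p 0.0026 without Nf1-KO replicate 2) to -0.0982 (0.20 without Nf1-KO replicate 1); a call was also gained by Pex11g without Het replicate 2 (-0.35, adjusted p 0.014) and by Acox3 with the 20 most abundant genes left out of the scaling (-0.16, 0.043). The sign changes were all in genes that did not pass: Decr2 (0.0251 unscaled, -0.0376 to 0.00287 over libraries left out, positive without Nf1-KO replicate 1), Hacl1 (-0.0586 to 0.214 over libraries left out, negative without Het replicate 1 or Nf1-KO replicate 1) and Agps (0.0347 unscaled, -0.0880 to 0.0229 over libraries left out, positive without Het replicate 1 or Nf1-KO replicate 2).

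The median over members was 0.112 with a pseudocount of 0.1, 0.0954 at 1 RPKM in all libraries, 0.158 unscaled, 0.0557 with the 20 most abundant genes left out of the scaling, and 0.0802 to 0.121 with a library left out. Members called lower numbered 5 with those 20 genes left out (3 in the main fit), and other peroxisome genes called lower 3 with no filter and 3 unscaled (6 in the main fit). Nf1 kept its sign but was no longer called without the filter (-0.18, adjusted p 0.081), unscaled (-0.13, 0.094) and with each library left out (-0.21 to -0.15). For these changes the cause was not tested. Over all genes, higher against lower calls went from 2658 and 2713 to 3760 and 1883 unscaled.

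Replicate numbers showed no pairing: deviations of same-numbered libraries correlated at -0.018. With the replicate block, 5235 genes were called against 5371, 13 members were higher and 4 lower, Pex7 being added, and Nf1 (-0.18, adjusted p 0.056) lost its call. Where a library was left out, the lone library of its group was taken to vary like the other group. With 2 libraries per group, calls depend on variance pooled over genes by limma.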
